A study of Mus musculus with 2 samples.

Results

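Alpha cell marker genes were examined in pancreatic islets of adult mice, on 1 microarray for control islets and 1 for islets of mice with a beta cell-specific knockout of Zbtb20, which encodes a zinc finger protein that binds DNA and represses transcription. The 8 genes considered were Irx1, Irx2, Ttr, Gc, Pou3f4, Dpp4, Mamld1 and Smarca1, that is, alpha cell transcription factors and markers other than glucagon itself. They were chosen by name, and every probe set that the platform annotation pairs with 1 of these genes alone was taken. This gave 14 of the 34945 probe sets with 1 gene, for 7 of the 8 genes. Gc, which encodes the vitamin D-binding protein, had no such probe set and is not analysed here.

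The study asked which genes ZBTB20 controls in beta cells. The control group was labelled wildtype and came from littermates of the knockouts. In both groups the mice were on a mixed background and between 2 and 3 months of age. Islets of both groups were isolated by collagenase digestion, selected by hand, kept in culture overnight and stored frozen. The promoter that drove the deletion, the deleted part of the gene, the sex of the mice and the number of animals per array are not given in the sources used here. Alpha cells are not the targeted cells of this knockout, so their transcripts were read in a mixture in which only beta cells were meant to lack Zbtb20.

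Alpha cells secrete glucagon, which raises blood glucose by acting on the liver, and they lie beside insulin-producing beta cells in the islet. The identity of an alpha cell is set during development by transcription factors, among them the homeodomain proteins Irx1, Irx2 and Pou3f4. Transthyretin (Ttr), a carrier of thyroxine and retinol-binding protein, and the surface peptidase Dpp4, which inactivates incretin hormones, are counted here as alpha cell markers. Smarca1 encodes an ATPase of chromatin remodelling complexes, and Mamld1 a mastermind-like coactivator.

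The values were MAS5 signals, linear intensities that summarise the probes of a probe set. The median signal was 21.6 on the control array and 21.7 on the knockout-labelled array, and these medians served as a floor below which no ratio was read. With 1 array per group there was no replicate error and no test could be made, so every ratio below compares 2 RNA preparations. The targeted gene did not settle the label, because its 9 probe sets had log2 ratios from -0.87 to 0.54 with knockout-labelled over control. The array is therefore called knockout-labelled.

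No alpha cell marker probe set differed by 2-fold or more between the arrays. Of the 14 probe sets, 9 were above the floor on both arrays, 1 on the control array only and 4 on neither, so 10 probe sets of 6 genes had a ratio. Of these 10, 0 were 2-fold higher and 0 were 2-fold lower, against 1.88% higher and 1.29% lower among the 21271 1-gene probe sets with a ratio. The knockout-labelled array gave the lower signal for 8 probe sets and the higher for 2, whereas 49.4% of all probe sets with a ratio were lower. Their median log2 ratio was -0.33, against 0.0034 over all of them. The 8 lower probe sets include 4 of Ttr, so they are not 8 separate observations. Those 4 are also bright, and of probe sets with a mean signal of 3000 or more, 74.0% were lower. By gene, 5 genes were lower in every probe set that had a ratio (Irx1, Irx2, Ttr, Mamld1 and Smarca1) and 1, Dpp4, was higher in both. All 9 ratios above both floors lay inside the central 95% of the 200 probe sets nearest in signal. For Ttr these 200 covered a broad range of bright probe sets, acinar genes among them, so lying inside says little there. In islet RNA, fewer alpha cells and less RNA per alpha cell cannot be told apart. With 1 array per group, neither can be told from variation between preparations or arrays.

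**Figure D1:**
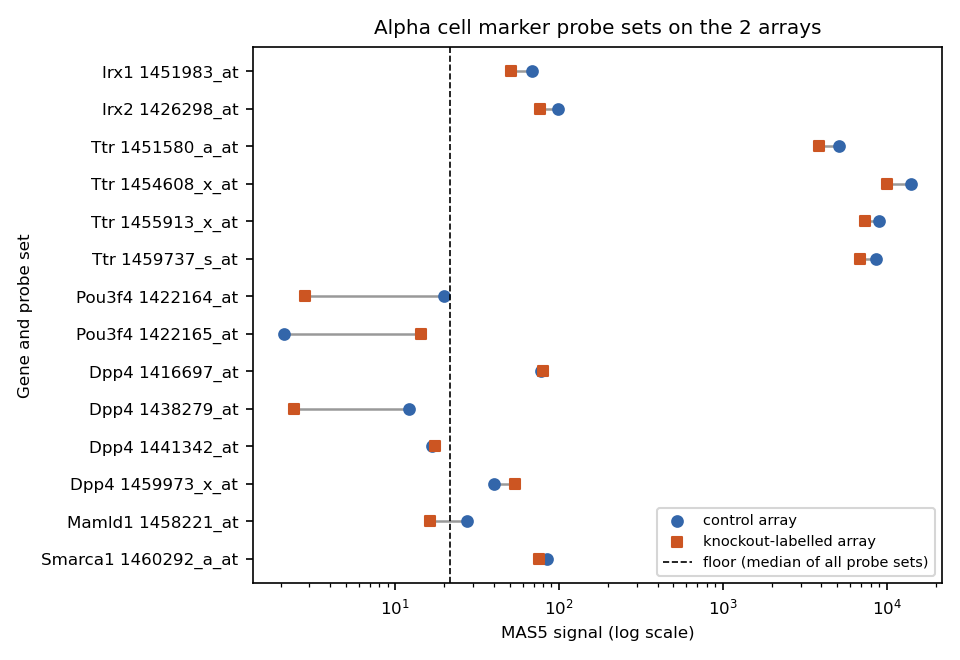
MAS5 signal (log scale) of each of the 14 probe sets on the control array (circles) and the knockout-labelled array (squares), with a dashed line at the floor, the median of all probe sets. The 4 Ttr probe sets lie between 3846 and 14021 and are all lower on the knockout-labelled array, while both Pou3f4 probe sets lie under the floor on both arrays.

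Irx1 and Irx2 are homeodomain factors of the Iroquois family and neighbours in the genome, with no other protein-coding gene listed between them on chromosome 13. Irx1 gave a signal of 68.1 on the control array and 51.0 on the knockout-labelled array, 1.34-fold lower (log2 ratio -0.42). The Irx2 signal was 99.1 and 77.0, 1.29-fold lower (log2 ratio -0.36). Both genes thus had a lower signal by a like amount, each on a lone probe set. Signals of this height were loosely determined. Among the 200 probe sets nearest to Irx1 in mean signal, the central 95% of log2 ratios ran from -0.92 to 1.02, and 29 of them lay below Irx1. Among the 200 nearest to Irx2 the range was -0.71 to 0.86, with 30 below Irx2. Neither ratio therefore left the spread of probe sets of similar brightness. The other Iroquois genes and the related homeobox gene Mkx were not above the floor. All 5 of them (Irx3, Irx4, Irx5, Irx6 and Mkx) were under the floor on both arrays in their brightest probe set, with signals from 0.6 to 11.5.

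Promoter composition varied widely among the alpha cell markers. Promoters were taken as the 250 bases before and 50 after the start of the gene in RefSeq, build GRCm38.p6. They were analysed for 6 of the 8 genes. Irx1 had no listed promoter, and Ttr was left out of the promoter analysis. The promoters of Irx2 and Dpp4 are printed because these genes stood on opposite sides in the arrays and are far apart in composition. Capitals mark matches on either strand to GGGCGG (the GC box) or TATAAA (the TATA box). Irx2 lies at chr13:72628570-72628869 on the + strand and Dpp4 at chr2:62412182-62412481 on the - strand.
Irx2: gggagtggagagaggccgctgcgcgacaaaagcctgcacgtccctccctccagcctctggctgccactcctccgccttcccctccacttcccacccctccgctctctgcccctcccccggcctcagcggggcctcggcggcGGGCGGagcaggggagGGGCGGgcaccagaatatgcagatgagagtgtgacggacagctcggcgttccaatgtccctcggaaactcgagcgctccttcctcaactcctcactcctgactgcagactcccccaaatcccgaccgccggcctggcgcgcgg
Dpp4: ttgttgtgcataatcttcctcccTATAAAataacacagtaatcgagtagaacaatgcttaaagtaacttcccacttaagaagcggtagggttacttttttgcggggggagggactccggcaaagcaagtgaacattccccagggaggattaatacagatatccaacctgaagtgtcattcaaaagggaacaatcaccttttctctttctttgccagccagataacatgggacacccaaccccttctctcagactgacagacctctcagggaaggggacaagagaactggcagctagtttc
The Irx2 promoter had 69% G and C, 25 CpG dinucleotides and 2 GC boxes, whereas that of Dpp4 had 45.3%, 4 and 0. GC boxes were found in 35.7% of the 32851 promoters in the table and TATA boxes in 13.6%. Dpp4 held 1 TATAAA, at position -227 from the start, and the other 5 promoters described held 0. Mamld1 had 36 CpG dinucleotides and 4 GC boxes, Pou3f4 had 15 and 0, Smarca1 had 9 and 1, and Gc had 0 and 0. The median promoter had 7 CpG dinucleotides. The motif TGTTTAC of forkhead factors, present in 3.65% of promoters, and TAATTA of homeodomain factors, present in 5.29%, were in none of the 6 windows. Since Ttr and Irx1 are not among these windows, the motif counts do not cover them. These matches describe letters only.

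Ttr was read by 4 probe sets in the upper part of the signal scale, and all 4 were lower on the knockout-labelled array. Probe set 1454608_x_at gave 14021 on the control array and 10091 on the knockout-labelled array, 1.39-fold lower. Probe set 1451580_a_at gave 5133 and 3846, 1.33-fold lower. These were the larger differences of the gene. Probe set 1459737_s_at gave 8642 and 6905, 1.25-fold lower. Probe set 1455913_x_at gave 8964 and 7386, 1.21-fold lower. The log2 ratios of the 4 probe sets ran from -0.47 to -0.28, with an SD of 0.088 among them. Over the 4729 genes with at least 2 probe sets above both floors, the median of this SD was 0.21. The probe sets read the same RNA and can share sequence, since the suffixes _x_at and _s_at mark probes that can also match other transcripts, so their closeness leaves out variation between animals and preparations.

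Bright probe sets as a class were lower on the knockout-labelled array. Of the 258 1-gene probe sets with a mean signal of 3000 or more, 74.0% had a log2 ratio below 0, and their median was -0.089. Ttr probe set 1454608_x_at had a lower ratio than most of them, with 17 below it. Of these 17, 9 belonged to genes of the acinar marker list, which code for digestive enzymes, and 8 did not. Among the latter, named after their values were seen, were the pancreatic polypeptide gene Ppy (-0.65) and the glycolysis genes Tpi1 (-0.56 and -0.53) and Pgk1 (-0.52 and -0.49). The Ttr probe set with the ratio nearest 1, 1455913_x_at, had 34 bright probe sets below it. All 4 Ttr ratios lay inside the central 95% of their 200 nearest probe sets, which reached down to -0.95 or -1.08. These windows were broad, from 3093 to 6356 in mean signal for 1451580_a_at and from 3391 to 14774 for the others. The lowest ratios among bright probe sets were those of acinar genes, down to -1.53 for Cela3b. Lying inside these bounds therefore says little about the spread at the height of Ttr. With quantile normalization the log2 ratio of 1454608_x_at was -0.20 in place of -0.47, that of 1455913_x_at -0.14 in place of -0.28 and that of 1459737_s_at -0.17 in place of -0.32. With loess, 1455913_x_at was at -0.18. Signals near the top of the scale can also be compressed.

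**Figure D2:**
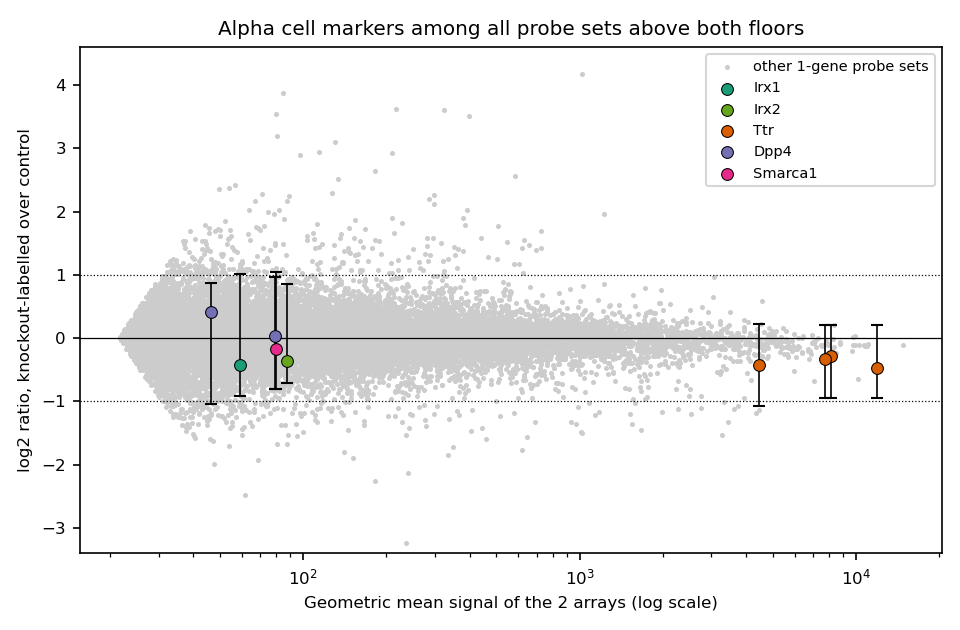
Log2 ratio of knockout-labelled over control against the geometric mean signal of both arrays (log scale) for 1-gene probe sets above both floors (grey), with the 9 alpha cell marker probe sets in colour. Black bars span the central 95% of the 200 probe sets nearest in signal, dotted lines mark 2-fold, and all 9 coloured points lie inside their bars. The bars of Ttr draw on a broad range of bright probe sets, acinar genes among them.

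Glucagon, the defining alpha cell product, had a ratio closer to 1 than any Ttr probe set. Its gene Gcg read 11215 on the control array and 10292 on the knockout-labelled array, 1.09-fold lower (log2 ratio -0.12), on a probe set near the top of the scale. The median log2 ratio of probe sets with a mean signal of 3000 or more was -0.089. With 1 array per group, the difference between the Gcg and Ttr ratios could not be tested.

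Rbp4, the retinol-binding protein that circulates bound to transthyretin, went the other way from Ttr. It read 1710 on the control array and 2333 on the knockout-labelled array, 1.36-fold higher. It was the 1 gene with a ratio in the list of transthyretin partners, in which Stra6 was under the floor on both arrays. Rbp4 is also counted among the delta and PP cell markers below. Ttr is also a plasma protein of hepatocytes, as are Alb, Apoa1, Apoa2, Fga and Fgb. Of these 5 measured genes, 3 had a ratio, 0 were 2-fold higher and 1 was 2-fold lower, against 1.82% higher and 1.44% lower over 11812 genes taken by their brightest probe set. Fgb, a fibrinogen chain, was 77.3 on the control array and 33.0 on the knockout-labelled array. With the floor at the 70th percentile or a pseudocount of 16 in place of a floor, 0 genes of this list were at 2-fold. The defining liver gene Alb was under the floor on both arrays, at 9.5 and 0.8. The albumin family, to which the unmeasured Gc belongs, had no member above the floor. Alb, Afp and Afm had brightest signals from 0.8 to 17.1.

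Pou3f4, a POU-homeodomain factor known as Brn4, could not be read. Its 2 probe sets were under the floor on both arrays and went opposite ways. Probe set 1422164_at gave 19.8 on the control array and 2.8 on the knockout-labelled array, whereas 1422165_at gave 2.1 and 14.3. At this signal a difference between the arrays was not detectable. With the floor set at the 30th percentile, 1422164_at counted as at least 2-fold lower and 1422165_at had a log2 ratio of at least 0.72. Among POU relatives, 2 of 6 measured genes had a ratio, 0 of them at 2-fold, against 1.82% higher and 1.44% lower of all genes. Pou6f1 was 113 on the control array and 79.3 on the knockout-labelled array, and Pou2f2 was at least 1.13-fold lower.

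Dpp4 was the exception in direction, with both of its readable probe sets slightly higher in the knockout-labelled islets. Probe set 1416697_at gave 77.9 on the control array and 80.2 on the knockout-labelled array (log2 ratio 0.042). Probe set 1459973_x_at gave 40.2 and 53.6, 1.33-fold higher (log2 ratio 0.42). The brighter probe set was nearly equal on the arrays, and the weaker one lay well inside the range of its 200 nearest probe sets, from -1.05 to 0.87. The other 2 Dpp4 probe sets were under the floor on both arrays. Probe set 1441342_at gave 16.7 and 17.6, and 1438279_at gave 12.1 and 2.4.

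Dpp4 lies next to Gcg on chromosome 2, and Gcg in turn next to Fap, a related peptidase gene. Whether the 3 neighbours share a pattern could not be read from these arrays. Dpp4 was equal or higher, inside the range of probe sets of similar signal. Gcg was slightly lower (log2 ratio -0.12), near the median of -0.089 for bright probe sets, and Fap was under the floor on both (10.4 and 5.9). Among the dipeptidyl peptidase relatives, 7 of 7 genes were measured and 6 had a ratio. Of these, 0 were 2-fold higher or lower, against 1.82% higher and 1.44% lower of all genes. Dpp6, a potassium channel accessory subunit without peptidase activity, was 31.0 on the control array and 53.4 on the knockout-labelled array, 1.72-fold higher. Its inactive relative Dpp10 was at least 1.32-fold lower. The cytosolic peptidase genes Prep (118 and 92.1) and Dpp8 (172 and 136) had lower signals, although a weaker Dpp8 probe set was at least 2.10-fold higher. Dpp4 is also a surface protein of lymphocytes (CD26). Of 6 measured lymphocyte markers, 2 had a ratio, 1 above 0 and 1 below. The T cell gene Cd8a was 33.6 on the control array and 54.1 on the knockout-labelled array, 1.61-fold higher. Cd79a was at least 1.32-fold lower. The defining T cell genes Cd3e and Cd3g were under the floor on both arrays, as were Cd2 and Cd4.

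Mamld1 and Smarca1 are carried, like Pou3f4, on the X chromosome. Mamld1 read 27.4 on the control array and 16.3 on the knockout-labelled array, the latter under the floor, so it was at least 1.26-fold lower. Its control signal stood next to the floor. The Smarca1 signal was 84.7 and 75.1, 1.13-fold lower (log2 ratio -0.17), and 70 of its 200 nearest probe sets had a lower ratio. Sex-linked genes were read beside them, since the labels do not give the sex of the mice. Xist, the RNA of the inactive X chromosome, gave 434 on the control array and 328 on the knockout-labelled array in its brightest probe set. The Y-linked gene Eif2s3y gave 106 and 63.8, Uty 34.4 and 46.2, and Kdm5d 33.7 on both arrays. Female-specific and Y-linked transcripts were thus above the floor on both arrays in their brightest probe sets. Weaker probe sets of Eif2s3y, Kdm5d and Uty were under the floor on both arrays. Eif2s3y was 1.66-fold lower on the knockout-labelled array. Xist was 1.32-fold lower in its brightest probe set and had log2 ratios of 0.31 and 0.11 in the others, and another Uty probe set was at -0.57. The sex-linked probe sets thus did not move one way, and the part of sex in the X-linked ratios was not tested.

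Relatives and partners of Smarca1 in chromatin remodelling were within 2-fold in their brightest probe sets. Of 10 measured genes, 9 had a ratio and 0 reached 2-fold, against 1.82% higher and 1.44% lower of all genes. The log2 ratios ran from -0.24 (Baz2a) to 0.20 (Smarca2). Weaker probe sets of these genes differed, with Smarca2 at 0.58 and Baz2a at 0.28. Smarca5, the closest relative, named here after its values were seen, was 753 on the control array and 691 on the knockout-labelled array, and its weakest probe set had a log2 ratio of 0.40. Bptf, the large subunit that partners Smarca1 in the NURF complex, was 694 and 756. Baz1a and Baz1b, which pair with Smarca5, had log2 ratios of 0.20 and 0.15. In the mastermind and Notch list, 6 of 8 measured genes had a ratio and all 6 were below 0 in their brightest probe set, with a median log2 ratio of -0.26, although 0 were at 2-fold. The receptor gene Notch1 was 68.1 and 39.7, 1.72-fold lower, while its other probe set gave a log2 ratio of 0.31. The Notch target gene Hes1 was 65.5 and 40.7, 1.61-fold lower. Notch2 was at least 1.24-fold lower, and Rbpj, the DNA-binding partner of Notch, was 116 and 100.2, with other probe sets at log2 ratios of 0.59 and -0.083.

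Other alpha cell genes were mixed in direction, with 3 above 0 and 2 below. Of 10 listed genes, 6 were measured and 5 had a ratio, of which 1 was 2-fold higher and 0 were 2-fold lower, against 1.82% and 1.44% of all genes. Their median log2 ratio was 0.028. Slc38a5, an amino acid transporter that rises in proliferating alpha cells, was read by a lone probe set. Its signal was 153 on the control array and 406 on the knockout-labelled array, 2.66-fold higher. Proliferation of alpha cells was not tested. Slc7a2, the transporter of arginine and lysine, was 212 and 196 in its brightest probe set (log2 ratio -0.11), and its other 3 probe sets were also lower, at -0.40, -0.26 and -0.044. The somatostatin receptor gene Sstr2 was 30.7 and 31.3. Ndst4, a heparan sulphate-modifying enzyme, was above the floor on the knockout-labelled array alone, at least 1.43-fold higher.

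The transcription factors that alpha cells share with other endocrine cells were also mixed. Of 10 measured genes, 9 had a ratio, 5 above 0 and 4 below, with a median log2 ratio of 0.099. Myt1, a zinc finger factor of endocrine differentiation, was 32.5 on the control array and 74.3 on the knockout-labelled array, 2.29-fold higher. It was the 1 gene at 2-fold, against 1.82% higher and 1.44% lower of all genes. Its other, weaker probe set was at least 1.22-fold higher. With the floor at the 70th percentile, with a pseudocount of 16 in place of a floor, or with the mean over its probe sets, 0 genes of the list were at 2-fold. St18, a relative of Myt1, was 981 and 640, 1.53-fold lower. Isl1, a LIM-homeodomain factor, was 1467 and 1120, 1.31-fold lower, and Foxa2, a forkhead factor, 609 and 869, 1.43-fold higher. Pax6, which activates the glucagon gene and is named after its values were seen, was 1938 and 1767.

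**Figure D3:**
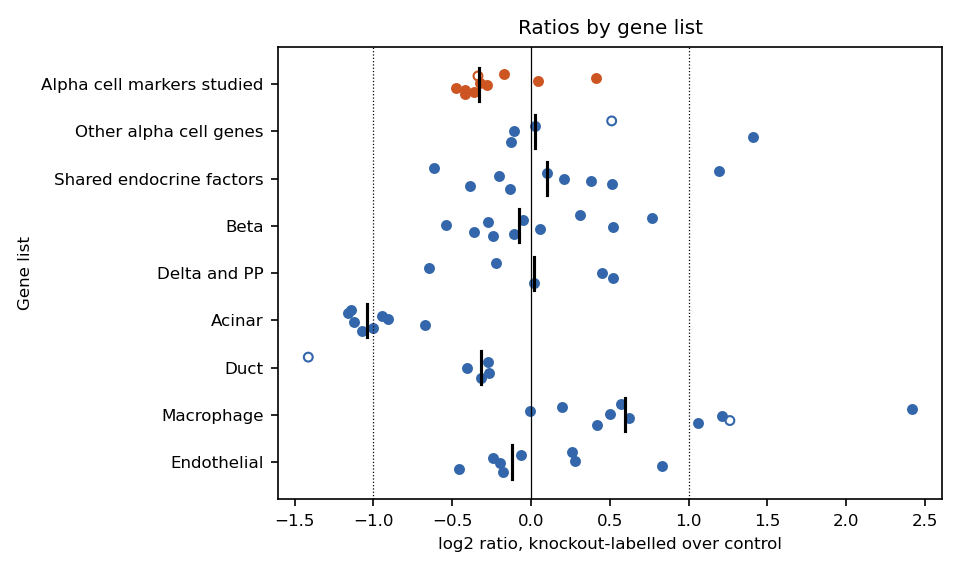
Log2 ratio of knockout-labelled over control for the 10 alpha cell marker probe sets (top) and, with 1 point per gene, for other lists; open circles are bounds, black bars are medians and dotted lines mark 2-fold. The alpha cell markers lie between -0.47 and 0.42, the acinar genes lie below all of them and macrophage genes reach 2.42.

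The acinar and macrophage marker lists had medians farther from 0 than the alpha cell markers. Of 9 measured acinar genes, 8 had a ratio and 5 were 2-fold lower, against 1.44% of all genes, with a median log2 ratio of -1.04. These were the elastase genes Cela1 and Cela2a, the carboxypeptidase gene Cpa1, the lipase gene Cel and the trypsinogen gene Prss2, and with loess the count was 3. The summed signal of the 9 measured acinar genes was 40908 on the control array and 21069 on the knockout-labelled array. The defining acinar factor gene Ptf1a was under the floor on both arrays. Of 11 measured macrophage genes, 10 had a ratio and 4 were 2-fold higher, against 1.82% of all genes, with a median of 0.60. These were the mannose receptor gene Mrc1, the complement gene C1qb and the signalling adaptor genes Tyrobp and Fcer1g. Fcer1g was under the floor on the control array, so its ratio is a bound. The count was 1 with a pseudocount of 16 in place of a floor, and a floor at the 70th percentile left 0. The summed macrophage signal was 802 and 1288. Among 7 measured duct markers, 5 had a ratio, all below 0, with a median of -0.32. Of these 1, the carbonic anhydrase gene Car2, was at least 2-fold lower, against 1.44% of all genes. A floor at the 70th percentile left 0 such genes, and one at the 30th gave 2. The summed duct signal was 7118 and 5686, and the defining duct factor gene Sox9 was under the floor on both arrays. Of 10 measured beta cell genes, 0 reached 2-fold and the median was -0.077. The 5 delta and PP cell genes with a ratio had a median of 0.016 and the 8 endothelial genes one of -0.12, with 0 at 2-fold in either list. The part of the acinar, duct and macrophage differences in the lower signals of Irx1, Irx2 and Ttr was not tested.

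The 10 probe sets with a ratio kept their direction across the scalings and floors tried. In each setting that gave them a ratio, Irx1, Irx2, Mamld1, Smarca1 and all 4 Ttr probe sets were below 0 and Dpp4 probe sets 1416697_at and 1459973_x_at above 0. The weak Dpp4 probe set 1438279_at, under the reported floor on both arrays, was at -0.49 when the floor was the 30th percentile, and at -0.61 with a pseudocount of 16 in place of a floor. Array-wide scaling moved the median of all probe sets by less than 0.01 on the log2 scale. Direction in 1 pair of arrays carries no information on how it would vary between animals.

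**Figure D4:**
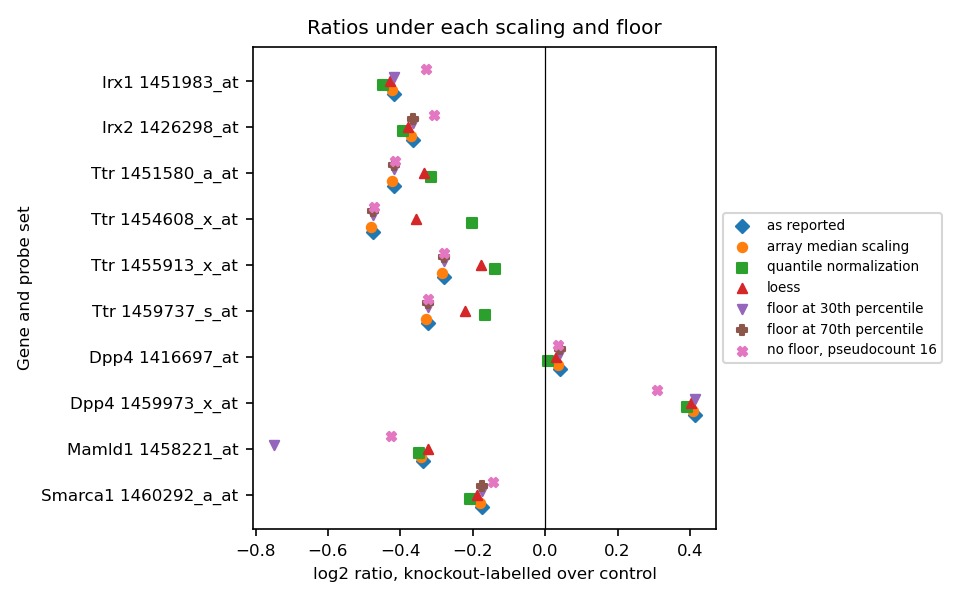
Log2 ratio of knockout-labelled over control for the 10 probe sets with a ratio, under the reported setting and 6 alternatives of scaling or floor. The sign of each probe set is the same in every setting that gives it a ratio, and the Ttr values shrink toward 0 with quantile normalization and loess.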

How the data were processed

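Islet RNA of 1 control and 1 knockout-labelled group was hybridised to 1 Affymetrix array each, from 6 µg of total RNA labelled with biotin per the labels. The deposited intensities are signals made with MAS5, per the submitters' processing notes. The version, the scaling target and detection calls are not given in the sources used here. All 45037 probe sets of the table had a value on both arrays, and the trimmed mean signal (2% removed from each end) came to 99.3 for each. The intensities were used as deposited. In the dated platform annotation, 34945 probe sets carried 1 gene symbol, 932 carried several and 9160 none. A signal below its array's 50th percentile was set to that value, the floor, and the log2 ratio taken. A ratio with 1 array under the floor is a bound, written "at least", and none was taken with both under it. Genes of lists were read from their brightest probe set. Differences from 2-fold on were counted. The number of arrays, 2, limits the precision, and no test was possible. The steps were tested on simulated data. The planted changes were larger than those of the alpha cell markers and lay on probe sets brighter than those of every member but Ttr. That test did not cover differences as small as those reported for the members. Analyses used Python 3.11.15, numpy 2.4.6, pandas 2.3.3 and statsmodels 0.14.6. The members and lists were chosen with earlier results of these data known. Named were all members, Zbtb20, and from each list all genes at 2-fold and the largest ratios up to 4; from lists of other cell types, genes at 2-fold and some defining markers. Alternatives were median scaling, quantile normalization, loess, floors at the 30th and 70th percentile, no floor with a pseudocount of 16, limits of 1.5-fold and 3-fold, and 1 value per gene. Some listed genes are not reported here.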

Additional observations from a re-analysis of the deposited data

How the results depend on the processing

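No paired analysis was possible because each group had 1 array. The median log2 ratio of the alpha cell marker probe sets was -0.33 and stayed below 0 in every alternative, from -0.35 with 1 value per gene to -0.21 with quantile normalization. The count of these probe sets at 2-fold was 0 in both directions under each alternative but 1: with the floor at the 30th percentile, 1 was lower (Pou3f4 1422164_at). Among other alpha cell genes, 1 was at 2-fold or more higher, and this was 2 with the floor at the 30th percentile, 2 with a pseudocount of 16 in place of a floor, and 0 at a limit of 3-fold. No value changed sign among the single probe sets that had a ratio. Of 57 such values, 55 moved by less than the 0.21 typical between probe sets of 1 gene. The low signal limits Irx1, Irx2, Mamld1, Pou3f4, Dpp4 and Smarca1, and whether the Ttr signals are compressed at their height was not tested.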
